A study of Mus musculus with 6 samples.

Results

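The Slc25 family of mitochondrial carriers was examined in mouse splenic CD4+ T cells that had been stimulated through CD3 and CD28 and cultured with MAPK13-IN-1 or with DMSO. Members were all gene symbols made of Slc25a and a number whose summed count over the 4 libraries of the count table was 20 or more. Of 47 matching symbols among 35602 genes, 42 met this rule. *Slc25a34* was the member just inside the rule, counted 5 and 4 times with DMSO and 12 and 6 times with the inhibitor, 27 in total. The symbol just outside it was *Slc25a2*, an ornithine carrier, with 2, 3, 4 and 3 counts, 12 in total. *Slc25a41* had a summed count of 8, *Slc25a31*, the ADP/ATP carrier of germ cells, had 6, and *Slc25a21* and *Slc25a54* had 0.

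Proteins of this family sit mostly in the inner mitochondrial membrane, where they exchange metabolites, nucleotides, phosphate and cofactors between the cytosol and the matrix. They are encoded in the nucleus, and most enter the membrane through the TIM22 import complex with the help of small chaperones of the intermembrane space. In T cells that divide after stimulation, the export of citrate for lipid synthesis, the exchange of ADP for ATP and the malate-aspartate shuttle all pass through such carriers.

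MAPK13-IN-1 is an inhibitor of the kinase encoded by *Mapk13*, and DMSO, its solvent, was the control. The study asked how gene expression differs between cells cultured with the inhibitor and cells cultured with DMSO, with 3 libraries in each group. Per the series design, the cells were sorted from spleen and stimulated for 72 h with the inhibitor or DMSO present. Replicates 2 and 3 of both groups were of WT genotype, and the labels state that 17.1 µM of inhibitor, or DMSO, was added after day 1. The design and the labels thus differ on when treatment began, and which holds is not known for any library. A further library of each group carries no number in its label. Values of these libraries are headed C4 and M4, and those of the others C2, C3, M2 and M3. They are called the replicate 1 pair here, a name that neither labels nor headers give. Their labels name the treatment, CD4+ T cells and spleen but neither genotype nor dose, and they were made with a stranded mRNA kit, while mRNA of replicates 2 and 3 was purified with poly-T beads. The study's methods name C57BL/6J and BALB/c mice without tying a strain to these cells, and age and sex were not given in the sources used here. The count table held 26874805 and 28487403 counts for DMSO 2 and DMSO 3 and 33854760 and 32617702 for inhibitor 2 and inhibitor 3. At these depths 3 counts correspond to 0.0886 to 0.112 CPM (counts scaled to library size). The replicate 1 pair was given as 1 value per gene and library, read here as FPKM (fragments scaled by exon length and depth), a unit inferred from the values, and its depth is unknown. Nothing in the labels says that the replicates came from separate mice or cultures, or that libraries of equal number were paired, so the p-values measure the spread between these libraries, which may be technical.

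Members of the family changed in both directions, with more lower than higher under TMM scaling (trimmed mean of M-values). When libraries were scaled by their totals, 11 were higher (26.8%) and 10 lower (24.4%), beside 37.9% and 26.5% of all genes. Of the 42 members, 41 had enough counts to be tested (*Slc25a34* had not), 10 were higher with the inhibitor, 19 were lower and 12 did not pass the edgeR quasi-likelihood test at a Benjamini-Hochberg adjusted p-value of 0.05. Among all 16269 genes tested, 63.8% were called, 31.5% as higher and 32.3% as lower. The members' shares were 70.7% called, 24.4% higher and 46.3% lower. With a log2 fold change of at least 0.5 in either direction required as well, 18 members were called (43.9%, 7 higher and 11 lower), beside 44.6% of all genes (22.4% higher and 22.2% lower), so the share of members with changes of this size was close to the background. The median log2 fold change was -0.17 over members and 0.012 over all genes, and the median absolute log2 fold change was 0.39 over members and 0.52 over all genes. With library totals the median of all genes moved to 0.14 and that of the members to -0.041. The number of lower members was 11 without DMSO 2 and 12 without DMSO 3, and that of higher ones 6 without DMSO 3. Over all genes the shares higher and lower were 32.3% and 31.6% with RLE factors, 35.8% and 28.5% with upper-quartile factors and 25.9% and 27.1% with DESeq2. Of the genes then tested they were 25.6% and 26.8% without DMSO 2, and 25% and 25.8% without DMSO 3.

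In the replicate 1 pair 27 members were higher with the inhibitor and 15 lower, and the median log2 ratio of FPKM + 1 was 0.14 over the 42 members and 0 over all genes. Where both libraries reached 1 FPKM, the medians were 0.12 over 34 members and 0.050 over 10448 genes, and 20 of these members (58.8%) were higher, beside 54.3% of these genes. Replicates of equal number were set side by side and directions compared by sign alone. Nearly equal values therefore counted too, as for *Slc25a35* with 2.94 and 2.85 FPKM. Of the 29 members called in replicates 2 and 3, 19 (65.5%) had the same direction in all 3 pairs. They were 9 of the 10 higher and 10 of the 19 lower ones. Over all called genes found in both tables the share was 65.9%, with 75.3% of the higher and 56.8% of the lower ones. The share was thus larger for higher calls among all genes as well, and this difference was not tested. A single library per group allows no test of the replicate 1 pair, and whether the pairs differ was not tested.

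**Figure D1:**
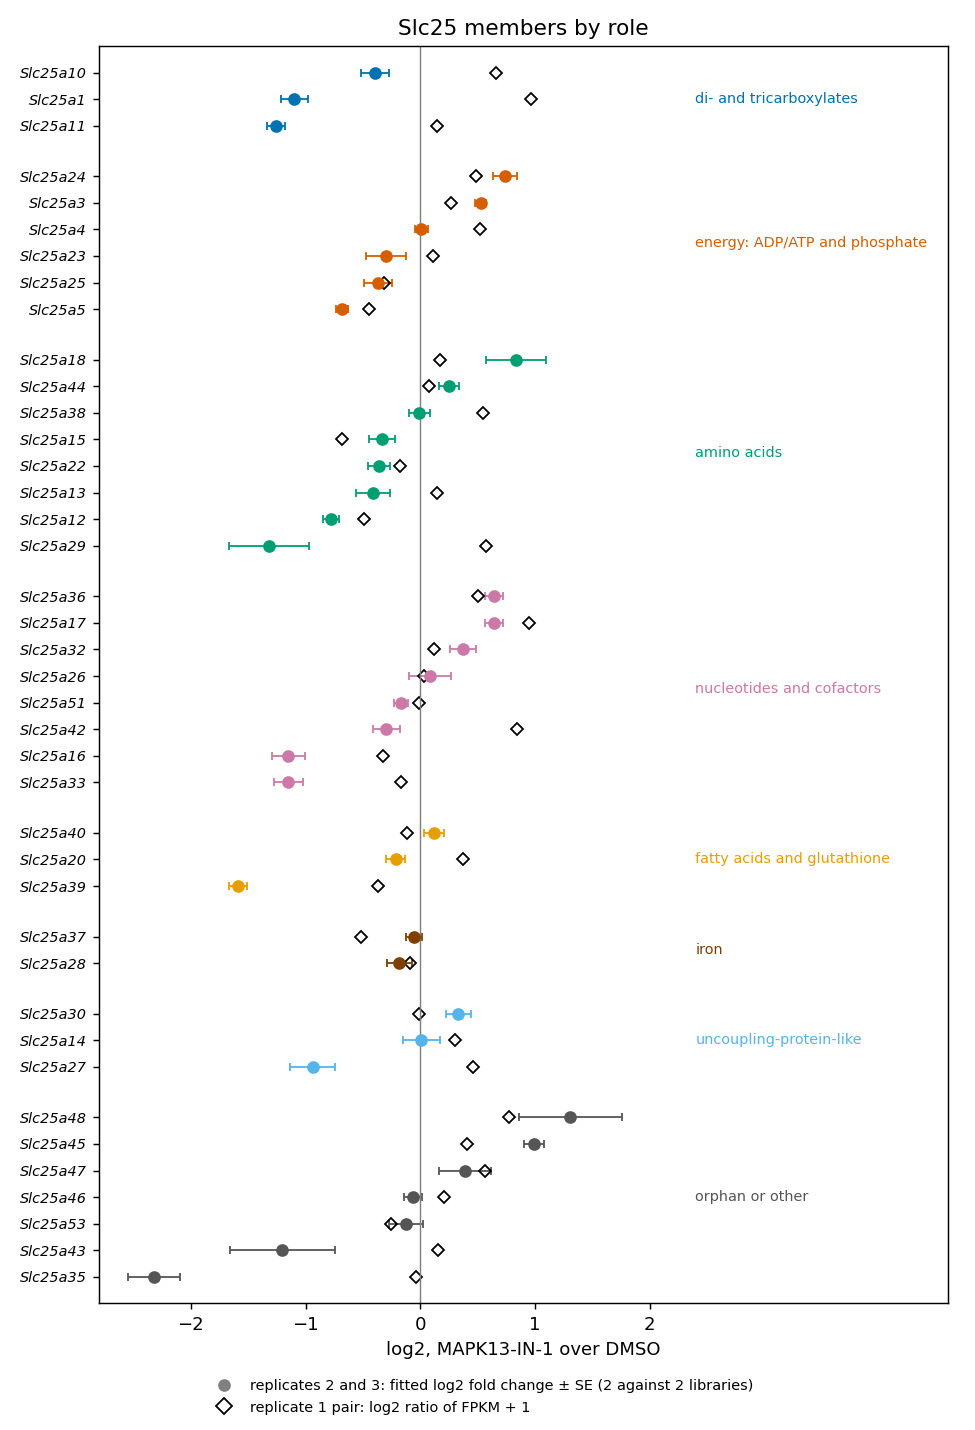
Log2 change of 40 of the 41 tested members with MAPK13-IN-1 over DMSO, ordered by role. Filled circles with bars give the fitted log2 fold change ± SE from 2 against 2 libraries, and open diamonds give the log2 ratio of FPKM + 1 in the replicate 1 pair. The fitted values run from -2.32 for *Slc25a35* to 1.31 for *Slc25a48*, and all 3 carriers of di- and tricarboxylates have circles left of 0 and diamonds right of 0.

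The identity of the cells was compared with marker genes. *Cd4* had 275, 276, 267 and 283 CPM (scaled by TMM) in DMSO 2, DMSO 3, inhibitor 2 and inhibitor 3, an order kept for all sets of 4 values here. Its groups overlapped (log2 fold change -0.00064, not called). The other 5 CD4 T cell markers tested, *Cd3e*, *Cd3d*, *Cd3g*, *Cd28* and *Lck*, were lower with the inhibitor, beside 32.3% of all genes, and *Trac* was not in the table. The 6 markers together had 1188, 1199, 785 and 857 CPM (marker sums are scaled by library totals), and 762 and 741 FPKM in the replicate 1 pair. There *Cd3d*, *Cd3e* and *Lck* had lower values with the inhibitor, while *Cd4* (118 and 146 FPKM), *Cd3g* (155 and 166) and *Cd28* (67.8 and 78.1) had higher ones. *Lck* was the most counted of them with DMSO and *Cd4* with the inhibitor. In bulk RNA, fewer cells of a type and less RNA per cell cannot be told apart.

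Markers of other cell types also moved with the groups, and their counts stand beside 31.5% of all genes higher and 32.3% lower. Of 5 B cell markers, 4 were higher, and their sum was 789.6, 772, 1023 and 1028 CPM, with *Pax5* the most counted in the inhibitor libraries. The replicate 1 pair had 41.9 FPKM with DMSO and 31.2 with the inhibitor, all 5 being lower. The CD4 T cell markers summed to 1188, 1199, 785 and 857 CPM, and to 762 and 741 FPKM. B cell markers thus summed to less than these with DMSO, to more with the inhibitor, and to far less in the replicate 1 pair. Such sums are not shares of cells. Without DMSO 2 or without DMSO 3, fewer B cell markers were called as higher, and without inhibitor 3 not all calls were in that direction. Erythroid markers, 7 of 8 tested, had 5 higher and 1 lower under TMM and summed to 10.1, 9.76, 95.4 and 68.8 CPM, and to 1.00 and 2.03 FPKM, where *Alas2* and *Klf1* were lower and the other 6 higher. *Epor* was the most counted with DMSO and *Hbb-bs* with the inhibitor. The lower one was *Epor* (log2 fold change -0.69), and none was lower with upper-quartile factors, library totals or DESeq2, or without DMSO 2, DMSO 3 or inhibitor 2. Macrophage markers had 4 of 5 higher and summed to 11.9, 10.5, 41.1 and 33.7 CPM, with *Cd68* the most counted, and to 2.89 and 8.90 FPKM. Both CD8 T cell markers were lower, at 11.2, 10.4, 5.76 and 8.16 CPM together, mostly *Cd8b1*, and had 3.49 and 8.39 FPKM. Of 5 neutrophil markers, only *Mpo*, at 2, 2, 17 and 16 counts, passed the filter on low counts, and it did so through the inhibitor libraries alone, so that no call is read from it. With at least 10 counts required in every library none was tested. *S100a9* was at 0 in all 4 libraries of the count table, and the sum was 0.223, 0.211, 0.561 and 0.797 CPM and 0.533 and 0.351 FPKM, where *S100a8* went from 0.416 to 0 and 3 markers, *Mpo* among them, had higher values. The part of such cells in the carrier values was not tested.

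*Mapk13* itself, the gene of the inhibited kinase, was counted at a low level, with 79, 74, 21 and 51 counts. Both inhibitor libraries lay below both DMSO libraries, and the log2 fold change was -1.47 ± 0.36 (SE; edgeR quasi-likelihood, Benjamini-Hochberg adjusted p = 0.0049). In the replicate 1 pair it was 0.191 FPKM with DMSO and 3.28 with the inhibitor, the opposite direction. Without inhibitor 2 the log2 fold change was -0.94 and without inhibitor 3 it was -2.29, both called.

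All 3 carriers of di- and tricarboxylates were lower in replicates 2 and 3 with TMM, RLE and upper-quartile scaling, and 2 of them with library totals, with DESeq2 and without DMSO 2 or DMSO 3. Of all genes 32.3% were lower under TMM, 31.6% with RLE factors, 28.5% with upper-quartile factors, 26.5% with library totals, 27.1% with DESeq2 and 26.8% and 25.8% without DMSO 2 and DMSO 3. *Slc25a1*, which exports citrate to the cytosol, where it feeds fatty acid and sterol synthesis, had 55.03 and 55.2 CPM with DMSO and 22.1 and 29.4 with the inhibitor. *Slc25a11*, which exchanges oxoglutarate for malate in the malate-aspartate shuttle, had 75.7 and 72.3 CPM with DMSO and 29.1 and 32.8 with the inhibitor. The groups of both genes were clearly apart, with both inhibitor libraries far below both DMSO libraries, and the log2 fold changes were -1.10 ± 0.12 and -1.26 ± 0.081 (SE; edgeR quasi-likelihood, Benjamini-Hochberg adjusted p = 1.8e-05 and 6.0e-07). *Slc25a10*, the dicarboxylate carrier, had 12.2, 11.8, 9.01 and 9.26 CPM, a log2 fold change of -0.40 ± 0.12, and it was not called with library totals, with DESeq2, without DMSO 2 (-0.39) or without DMSO 3 (-0.43). In the replicate 1 pair the values went the other way, from 16.7 to 33.6 FPKM for *Slc25a1*, from 28.9 to 32.1 for *Slc25a11* and from 2.35 to 4.29 for *Slc25a10*.

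The carriers of phosphate and of ADP and ATP serve oxidative phosphorylation. *Slc25a3*, which brings phosphate into the matrix, had 423 and 414 CPM with DMSO and 615 and 592 with the inhibitor. *Slc25a5* (Ant2), the ADP/ATP carrier typical of dividing cells, had 419.6 and 440.1 CPM with DMSO and 259 and 277 with the inhibitor. *Slc25a4* (Ant1), the ADP/ATP carrier best known from heart and muscle, had 159 and 168 CPM with DMSO and 166 and 164 with the inhibitor. Thus *Slc25a3* was higher and *Slc25a5* lower in both inhibitor libraries, while the groups overlapped for *Slc25a4*. The log2 fold changes were 0.53 ± 0.050 for *Slc25a3* (edgeR quasi-likelihood, Benjamini-Hochberg adjusted p = 7.8e-06), -0.68 ± 0.056 for *Slc25a5* (adjusted p = 3.0e-06) and 0.011 ± 0.057 for *Slc25a4* (adjusted p = 0.88), whose 95% confidence interval ran from -0.12 to 0.14. In the replicate 1 pair *Slc25a3* went from 247 to 297 FPKM, *Slc25a5* from 347 to 255 and *Slc25a4* from 91.6 to 132. Counts of *Slc25a3* made up 19.8% and 19.3% of all member counts with DMSO and 29.7% and 28.4% with the inhibitor, those of *Slc25a5* 19.7% and 20.5% and then 12.5% and 13.3%, and the members as a whole took 0.205% of each DMSO library and 0.217% and 0.216% of the inhibitor libraries. The annotation holds a transcribed processed pseudogene, *Slc25a5-ps*, and how reads shared with it were counted is not given in the sources used here.

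Levels per kilobase were scaled by all annotated exon bases of a gene, 5550 for *Slc25a3* and 1646 for *Slc25a5*. The length of the transcripts expressed is not known, so ranks and ratios between genes depend on this choice of length. On this scale *Slc25a5* had 254.9 and 267 CPM per kb with DMSO and 157 and 168 with the inhibitor. This was the highest level in the family in these 4 libraries, with *Slc25a3* next. Per kb, *Slc25a3* stood at 0.299 and 0.279 times the level of *Slc25a5* with DMSO and at 0.704 and 0.634 times with the inhibitor. By FPKM in the replicate 1 pair *Slc25a3* stood at 0.709 times with DMSO and at 1.16 times with the inhibitor. The level of *Slc25a5* was 3.76 and 3.74 times that of *Slc25a4* in DMSO 2 and DMSO 3 and 2.24 and 2.41 times in the inhibitor libraries, and by FPKM in the replicate 1 pair it was 3.79 and 1.93 times. The ratio was thus lower with the inhibitor in all 3 pairs. *Slc25a3*, *Slc25a4* and *Slc25a5* together held between 58.8% and 59.8% of the family's level per kb in the 4 libraries and 64.4% and 60.8% of its FPKM in the replicate 1 pair.

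The carriers that exchange ATP-Mg for phosphate, which are regulated by calcium, differed among themselves. *Slc25a24* had 13.8, 14.6, 24.8 and 22.7 CPM and was higher with the inhibitor (log2 fold change 0.74 ± 0.10, edgeR quasi-likelihood, Benjamini-Hochberg adjusted p = 0.00012), and it went from 5.65 to 8.33 FPKM in the replicate 1 pair. *Slc25a25* had 13.1, 13.2, 9.57 and 10.8 CPM and was lower (-0.37 ± 0.12), with 6.16 and 4.74 FPKM. *Slc25a23* had 7.64, 6.25, 5.01 and 6.25 CPM, inhibitor 3 matched DMSO 3, and it was not called, with 1.497 and 1.69 FPKM. Without inhibitor 3 *Slc25a23* was called as lower (-0.47), while it had -0.16 without DMSO 2 and -0.15 without inhibitor 2, beside -0.30 with all 4 libraries. The call of *Slc25a25* was lost with upper-quartile factors, with library totals, with DESeq2, without DMSO 2 (-0.38), without DMSO 3 (-0.37) or without inhibitor 2 (-0.28).

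**Figure D2:**
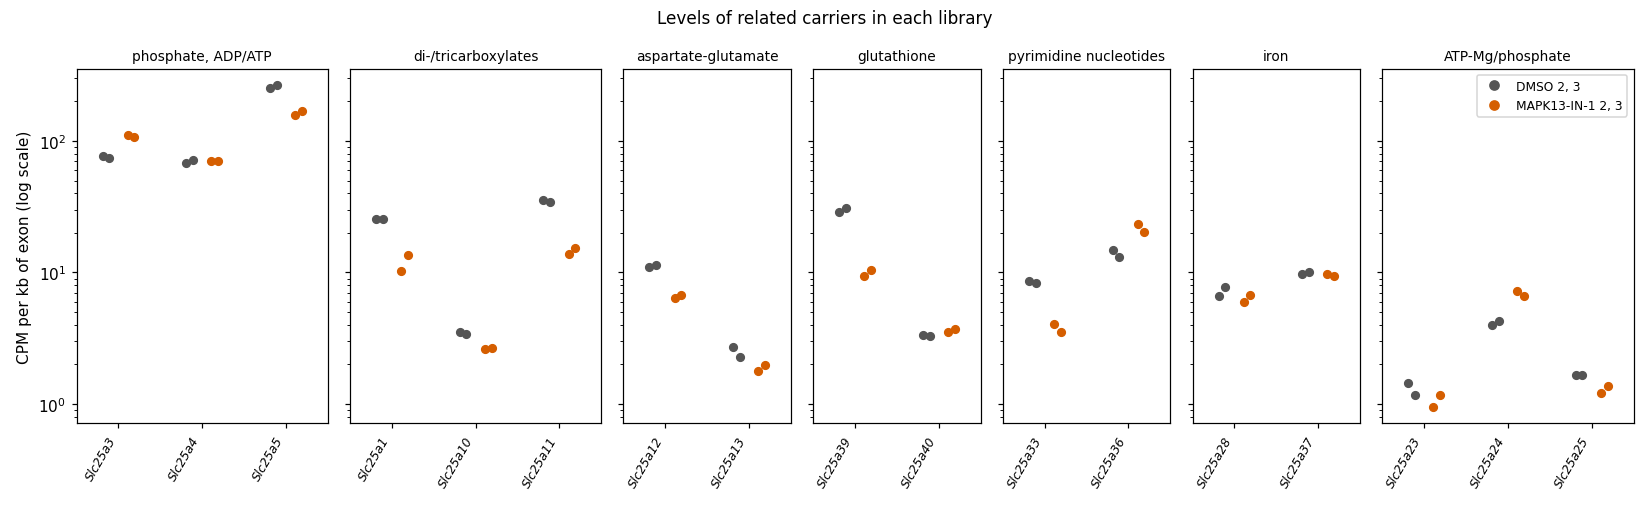
Levels of related carriers in DMSO 2 and 3 (grey) and MAPK13-IN-1 2 and 3 (orange), in CPM per kb of exon on a log axis, 1 point per library. The points of the groups are apart for *Slc25a3*, *Slc25a5*, *Slc25a1*, *Slc25a11*, *Slc25a39*, *Slc25a33* and *Slc25a36*, and overlap for *Slc25a4*.

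Amino acid carriers were lower in 5 of 8 cases and higher in 2 under TMM, beside 32.3% and 31.5% of all genes, and 2 were lower and 2 higher under library totals, beside 26.5% and 37.9%. Their median log2 fold change was -0.35 under TMM, beside 0.012 over all genes, and -0.22 under library totals, beside 0.14. With DESeq2, 2 were lower and 0 higher (27.1% and 25.9% of all genes), without DMSO 2 there were 3 lower and 0 higher (26.8% and 25.6%), and without DMSO 3 there were 4 lower and 1 higher (25.8% and 25%). Most counted was *Slc25a12* (aralar), which exchanges aspartate for glutamate and is the second carrier of the malate-aspartate shuttle. It had 80.5 and 84.0 CPM with DMSO and 46.9 and 49.2 with the inhibitor, and 35.7 and 25.2 FPKM in the replicate 1 pair, so that it was lower in all 3 pairs (log2 fold change -0.78 ± 0.069, edgeR quasi-likelihood, Benjamini-Hochberg adjusted p = 4.8e-06). Its close relative *Slc25a13* (citrin) had 10.3, 8.60, 6.73 and 7.52 CPM and a log2 fold change of -0.41 ± 0.15, with 5.34 and 6.01 FPKM. Its call was lost with upper-quartile factors, library totals, at least 10 counts in every library or DESeq2, and without DMSO 2 (log2 fold change -0.28) or without inhibitor 2 (-0.33). Per kb, *Slc25a12* stood at 4.02 and 5.05 times the level of *Slc25a13* with DMSO and at 3.60 and 3.39 times with the inhibitor, and by FPKM in the replicate 1 pair it was 6.69 and 4.19 times.

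The remaining amino acid carriers included low and moderate levels. *Slc25a29*, a carrier of basic amino acids, had 32, 39, 20 and 17 counts, with both inhibitor libraries lower, and a log2 fold change of -1.32 ± 0.35 (edgeR quasi-likelihood, Benjamini-Hochberg adjusted p = 0.0070), but went from 0.656 to 1.46 FPKM in the replicate 1 pair. *Slc25a18*, a glutamate carrier, had 30, 41, 89 and 77 counts, both inhibitor libraries being higher, and a log2 fold change of 0.84 ± 0.26, with 0.176 and 0.325 FPKM. Neither was called with DESeq2, and *Slc25a18* was not called without DMSO 2 (0.65). The other glutamate carrier, *Slc25a22*, was lower (-0.36), as was the ornithine carrier *Slc25a15* (-0.33), both in all 3 pairs. *Slc25a15* was not called with upper-quartile factors, library totals, at least 10 counts in every library or DESeq2, nor without DMSO 2 (-0.35) or DMSO 3 (-0.34), and *Slc25a22* was not called with library totals and had -0.23 without inhibitor 2. *Slc25a44*, linked to branched-chain amino acids, was higher (0.25, and 0.37 under library totals), also in all 3 pairs, and was not called with DESeq2 or without DMSO 2 (0.25) or DMSO 3 (0.23). *Slc25a38*, the glycine carrier needed for heme synthesis, had 22.8, 22.9, 23.6 and 21.9 CPM, was not called, and its 95% confidence interval ran from -0.22 to 0.20.

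Of 9 carriers of nucleotides and cofactors, 3 were higher and 4 lower under TMM, and 3 higher and 2 lower under each of the 3 other scalings. Among all genes 31.5% were higher and 32.3% lower under TMM, and 37.9% and 26.5% under library totals. Without DMSO 3 there were 2 higher and 2 lower, and without DMSO 2 there were 3 higher and 2 lower. The pyrimidine nucleotide carriers *Slc25a33* and *Slc25a36* moved apart. *Slc25a33* had 16.4 and 15.6 CPM with DMSO and 7.69 and 6.70 with the inhibitor, and 6.82 and 5.95 FPKM in the replicate 1 pair. *Slc25a36* had 142 and 125 CPM with DMSO and 223 and 196 with the inhibitor, and 23.8 and 34.2 FPKM. Neither gene's groups overlapped, both kept their direction in the replicate 1 pair, and the log2 fold changes were -1.15 ± 0.13 and 0.65 ± 0.079 (edgeR quasi-likelihood, Benjamini-Hochberg adjusted p = 2.1e-05 and 4.8e-05). Per kb, the level of *Slc25a36* was 1.71 and 1.58 times that of *Slc25a33* with DMSO and 5.70 and 5.76 times with the inhibitor, and by FPKM it was 3.50 and 5.74 times.

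*Slc25a17*, a carrier of the peroxisomal membrane for coenzyme A and other cofactors, had 56.7 and 54.9 CPM with DMSO and 81.5 and 92.7 with the inhibitor, and 34.7 and 68.1 FPKM. It was higher in every pair, with a log2 fold change of 0.64 ± 0.077 (edgeR quasi-likelihood, Benjamini-Hochberg adjusted p = 4.2e-05). *Slc25a16*, linked to coenzyme A, had 16.4 and 17.7 CPM with DMSO and 6.59 and 8.85 with the inhibitor, and 6.54 and 5.03 FPKM, lower in every pair with a log2 fold change of -1.15 ± 0.15. The coenzyme A carrier *Slc25a42* (-0.30) and the NAD carrier *Slc25a51* (-0.17) were called as lower under TMM, and both lost the call under RLE, upper-quartile and library-total scaling, with no filter, with at least 10 counts in every library and with DESeq2. *Slc25a42* went the other way in the replicate 1 pair, from 3.42 to 6.95 FPKM. *Slc25a51* had 95.9, 100.3, 85.4 and 89.5 CPM, and 20.8 and 20.6 FPKM. *Slc25a32*, a carrier of folate and FAD, was higher (0.37). The S-adenosylmethionine carrier *Slc25a26* was not called, with a 95% confidence interval of -0.32 to 0.49. *Slc25a32* lost its call without DMSO 3 (0.27), *Slc25a51* without DMSO 2 (-0.21) or DMSO 3 (-0.14), and *Slc25a42* without DMSO 2 (-0.30), DMSO 3 (-0.31) or inhibitor 2 (-0.18).

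Among the carriers of fatty acids and glutathione, *Slc25a39*, which brings glutathione into the matrix, was lower in all 3 pairs. It had 79.8 and 85.1 CPM with DMSO and 26.0 and 28.9 with the inhibitor, and 37.1 and 28.4 FPKM in the replicate 1 pair. Inhibitor libraries were well below DMSO libraries, at a log2 fold change of -1.59 ± 0.081 (edgeR quasi-likelihood, Benjamini-Hochberg adjusted p = 1.5e-07), and they did not overlap. Its relative *Slc25a40* had 28.3, 27.7, 29.7 and 31.1 CPM, and 13.8 and 12.7 FPKM, and was not called (log2 fold change 0.12 ± 0.085), although it was called as higher under library totals. Per kb, *Slc25a39* stood at 8.60 and 9.33 times the level of *Slc25a40* with DMSO and at 2.66 and 2.83 times with the inhibitor, while the ratios by FPKM were 2.68 and 2.23. *Slc25a20*, which carries acylcarnitines for fatty acid oxidation, was lower by a log2 fold change of -0.22 under TMM and went the other way in the replicate 1 pair, from 18.9 to 24.7 FPKM. Its call was lost under RLE, upper-quartile and library-total scaling, with no filter, with at least 10 counts in every library, with DESeq2 and without DMSO 2 (-0.24) or DMSO 3 (-0.21).

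Neither iron carrier was called. *Slc25a37* (mitoferrin 1) had 58.8, 60.8, 58.8 and 56.4 CPM and *Slc25a28* (mitoferrin 2) had 24.6, 29.1, 22.2 and 25.1 CPM, and the groups of both genes overlapped. Their 95% confidence intervals ran from -0.21 to 0.10 and from -0.43 to 0.059, and *Slc25a28* (log2 fold change -0.18) was called as lower without inhibitor 3 (-0.28), while it had -0.31 without DMSO 2, -0.068 without DMSO 3 and -0.099 without inhibitor 2, not called. For the iron carriers the replicate 1 pair had lower values with the inhibitor, and *Slc25a37* went from 12.3 to 8.34 FPKM and *Slc25a28* from 11.4 to 10.7.

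Of the uncoupling-protein-like carriers, *Slc25a27* was lower and *Slc25a30* higher. *Slc25a27* had 7.32 and 7.57 CPM with DMSO and 3.13 and 4.66 with the inhibitor, with no overlap, and a log2 fold change of -0.94 ± 0.20 (edgeR quasi-likelihood, Benjamini-Hochberg adjusted p = 0.0019). The replicate 1 pair went the other way, from 0.515 to 1.08 FPKM. *Slc25a30* rose by a log2 fold change of 0.33, had 7.75 and 7.66 FPKM, and lost its call with DESeq2 or without DMSO 3 (0.24). *Slc25a14* was not called, with a 95% confidence interval of -0.35 to 0.37.

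Carriers with no firmly assigned substrate, and others outside these classes, held both ends of the range. *Slc25a35* had 124 and 148 counts with DMSO and 39 and 32 with the inhibitor, 4.81, 5.44, 1.10 and 0.944 CPM, the lowest log2 fold change of the family at -2.32 ± 0.23 (edgeR quasi-likelihood, Benjamini-Hochberg adjusted p = 9.1e-06). Its FPKM values were 2.94 with DMSO and 2.85 with the inhibitor. *Slc25a45* had 21.04 and 20.6 CPM with DMSO and 43.1 and 39.6 with the inhibitor, a log2 fold change of 0.99 ± 0.088, and went from 5.54 to 7.68 FPKM, higher in all 3 pairs. *Slc25a48*, linked to choline, had only 17, 11, 31 and 60 counts, both inhibitor libraries being higher and far from each other. Its log2 fold change was 1.31 ± 0.45, and it was not called with DESeq2, without inhibitor 3 (0.71) or without DMSO 3 (0.99). *Slc25a43* had 19, 20, 8 and 14 counts and a log2 fold change of -1.20 ± 0.46, which was not called with upper-quartile factors, library totals or DESeq2, nor without DMSO 2 (-1.21), without DMSO 3 (-1.21) or without inhibitor 2 (-0.83). It had under 10 counts in inhibitor 2 and was not tested where 10 were required in every library. *Slc25a46*, a member in the outer membrane (44.9, 44.1, 40.9 and 44.2 CPM), and *Slc25a53* (6.63, 6.61, 6.22 and 5.93 CPM) were not called, nor was *Slc25a47*. For *Slc25a43* the replicate 1 pair had 0.232 and 0.370 FPKM and for *Slc25a48* 0.0683 and 0.831.

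Of the 29 called members, 14 kept their call under all 11 alternative settings, among them *Slc25a1*, *Slc25a3*, *Slc25a5*, *Slc25a11*, *Slc25a12*, *Slc25a39* and *Slc25a45*. The other 15 lost it under at least 1 setting. The share that kept it was 48.3%, beside 70.7% of all called genes.

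Members lie on many chromosomes, with 5 on chromosome 11 and 4 on X as the largest groups (GENCODE M21, GRCm38). Neighbouring family genes did not always change together. *Slc25a5* (X, 36795651 to 36798807, plus strand) lies 18448 bases from *Slc25a43*, and both were lower under TMM. *Slc25a43* had only 19, 20, 8 and 14 counts, and its call was lost with upper-quartile factors, library totals and DESeq2. *Slc25a29* and *Slc25a47* lie head to head on chromosome 12, with 162 bases between them, and the former was lower while the latter had 52, 50, 92 and 83 counts and was not called. Exons of some members overlap those of genes on the opposite strand, and whether the counting used strand is not given in the sources used here, so reads in the overlap cannot be assigned. The overlap was largest for *Slc25a35* (chromosome 11, 68968131 to 68974365, plus strand), where *Rangrf* covers 31.3% of the exon bases. *Rangrf* had 236, 234, 220 and 262 counts and was not called. Next was *Slc25a33*, where the antisense gene *Gm13068* covers 14.9%, and its counts are not analysed here. In *Slc25a11* (chromosome 11, 70644196 to 70647479, minus strand) 8.92% of exon bases are shared with *Rnf167*, which had 1534, 1578, 2858 and 2843 counts and was higher, opposite to *Slc25a11*. *Slc25a25* shares 4.82% with *Naif1*, which had 107, 112, 245 and 235 counts and was also higher, opposite to its carrier. Larger overlaps than this were in *Slc25a46* with *B930094E09Rik* (7.06%), *Slc25a10* with *Gm11788* (6.6%) and *Slc25a37* with *Gm31748* (6.33%). Values of these partners are not given here. *Slc25a26*, which was not called, shares 3.00% with *Lrig1*, which was higher (log2 fold change 0.29). In *Slc25a18*, with 30, 41, 89 and 77 counts, 1.67% of exon bases are shared with *Atp6v1e1*, which had 1434, 1534, 2907 and 2675 counts and was higher (0.52), the direction of *Slc25a18*. The partners with values given here were chosen after those values were seen.

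Promoter sequence was available for 33 of the 42 members (RefSeq, GRCm38.p6, 250 bases before to 50 after each start), and *Slc25a26*, *Slc25a27*, *Slc25a32*, *Slc25a35*, *Slc25a37*, *Slc25a44*, *Slc25a46* and *Slc25a51* were among those with no entry. Short motifs were sought on both strands. The E-box CACGTG was held by 6 of these 33 members (18.2%), beside 8.09% of 27025 genes. Of the 42 promoters of these 33 members, 7 held it, beside 7.15% of 32851 promoters of the same length. The 7 include the same *Slc25a14* site counted again from another start. Of members with a promoter, the E-box was in 4 of 16 lower and 1 of 8 higher ones. CTTTGAT, a core of the sequence that Tcf and Lef factors bind, was held by 3 members (9.09%), *Slc25a22*, *Slc25a28* and *Slc25a43*, beside 4.29% of all genes. The cores GCGCATGC of NRF1 and TGATGNAA of the amino acid response were in no promoter of the 33 members, and in 3.05% and 4.51% of all genes. A match is a string of letters and was not tested as a binding site. The holders were *Slc25a1*, *Slc25a13*, *Slc25a14*, *Slc25a15*, *Slc25a33* and *Slc25a36*. E-box windows upstream of the RefSeq start, with the motif in capitals, are shown for *Slc25a1* (chr16:17928433-17928469, minus strand), *Slc25a13* (chr6:6217273-6217318, minus strand), *Slc25a15* (chr8:22398329-22398374, minus strand), all lower, and *Slc25a36* (chr9:97111203-97111248, minus strand), which was higher, since the motif stood before genes that moved either way. The RefSeq start of *Slc25a15* lies 320 bases inside the gene as GENCODE draws it, so that this window is in an intron there, and that of *Slc25a36* lies 116 bases inside, with the window outside the gene. For *Slc25a1* and *Slc25a13* both starts are the same.
Slc25a1: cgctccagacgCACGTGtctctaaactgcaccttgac
Slc25a13: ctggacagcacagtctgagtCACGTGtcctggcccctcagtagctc
Slc25a15: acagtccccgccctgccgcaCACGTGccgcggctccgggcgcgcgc
Slc25a36: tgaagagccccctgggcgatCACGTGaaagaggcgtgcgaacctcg

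Other genes of mitochondrial transport were taken from lists. The TIM22 pathway inserts carriers into the inner membrane. Of 9 genes of this list, 8 were lower and none higher under each of the 4 scalings, with a median log2 fold change of -0.69 under TMM and -0.57 under library totals. Over all genes 32.3% were lower and 31.5% higher under TMM, with a median of 0.012, and 26.5% and 37.9% under library totals, with a median of 0.14. *Timm13*, a chaperone of the intermembrane space, had 71.9, 72.9, 24.7 and 28.5 CPM and 49.7 and 46.6 FPKM. *Timm10b* had 30.7, 28.3, 11.01 and 13.3 CPM and 29.0 and 21.7 FPKM, and *Timm8a1* had 28.3, 31.9, 16.4 and 15.3 CPM and 24.6 and 15.2 FPKM. All 3 were lower in each pair, with log2 fold changes of -1.45 ± 0.085, -1.28 ± 0.12 and -0.92 ± 0.10 (edgeR quasi-likelihood, Benjamini-Hochberg adjusted p = 3.3e-07, 5.5e-06 and 2.3e-05). *Timm29* was the gene not called, and *Agk*, a subunit of the complex, was not called without DMSO 2 (-0.31). In the TOM complex of the outer membrane, 3 of 7 genes were higher and 2 lower under TMM, beside 31.5% and 32.3% of all genes. Among them were *Tomm40*, the channel, with 92.3, 89.1, 55.8 and 66.1 CPM, *Tomm6* (-0.39) and *Tomm7* (0.29). The other higher genes, *Tomm20* (0.18) and *Tomm5* (0.32), were not called without DMSO 3 (0.20 and 0.28), which left 1 higher. *Tomm20* was also not called without DMSO 2 (0.15), and it had 0.11 without inhibitor 2 and 0.31 under library totals, called in both. *Tomm5* was also not called without inhibitor 2 (0.15), and both genes had lower FPKM with the inhibitor in the replicate 1 pair.

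Carrier-fold genes with other symbols were lower in 3 of 3 tested cases under TMM and RLE and in 2 under the other scalings, beside 32.3% of all genes under TMM and 26.5% under library totals. *Ucp2*, an uncoupling protein of immune cells, had 404.8 and 402 CPM with DMSO and 176 and 227 with the inhibitor, a log2 fold change of -1.003 ± 0.095 (edgeR quasi-likelihood, Benjamini-Hochberg adjusted p = 7.8e-06), but went from 175 to 236 FPKM in the replicate 1 pair. *Mtch2*, an insertase of the outer membrane, was lower (-0.42) and *Mtch1* lower by less (-0.20), and *Mtch1* lost its call with upper-quartile factors and library totals, without DMSO 2 (-0.22) or without DMSO 3 (-0.21). *Mtch1* had 44.8 and 52.2 FPKM in the replicate 1 pair, higher with the inhibitor. *Ucp1* (0, 0, 5 and 0 counts) and *Ucp3* (0, 8, 11 and 8 counts) did not pass the filter on low counts with all 4 libraries. With no filter 5 genes of the list were tested, of which 3 were lower and 0 higher. Without DMSO 2 or without DMSO 3, 4 genes were tested.

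The calcium uniporter had 4 of 6 genes lower under each scaling, and 1 higher under the 3 scalings other than TMM. Of all genes 63.8% were called under TMM, 32.3% as lower, so 4 calls of 6 was close to the overall share of calls. All 4 calls were lower, which was 66.7% of the list, beside the 32.3% of all genes. This difference was not tested. The list's median log2 fold change was -0.58 under TMM and -0.45 under library totals. *Smdt1*, the regulator EMRE, had 50.8, 54.3, 19.0 and 17.96 CPM and 93.1 and 83.4 FPKM, with a log2 fold change of -1.51 ± 0.086 (edgeR quasi-likelihood, Benjamini-Hochberg adjusted p = 2.7e-07). The pore gene *Mcu* (-0.82), its paralog *Mcub* (-0.97) and *Micu2* (-0.33) were lower as well, although *Mcub* went from 11.03 to 14.1 FPKM and *Micu2* from 27.1 to 27.8 in the replicate 1 pair. *Micu3* (6.28, 6.21, 8.19 and 7.70 CPM) was not called under TMM. Sideroflexins, which carry serine among other substrates, had 3 of 5 lower under TMM and 2 under upper-quartile and library-total scaling, beside 32.3%, 28.5% and 26.5% of all genes. Under TMM *Sfxn1* (-0.40), *Sfxn2* (-0.37) and *Sfxn3* (-1.32) were lower and *Sfxn5* higher (0.47), while *Sfxn4* was not called. *Sfxn5* lost its call with a replicate block and with DESeq2, without DMSO 2 (0.50), DMSO 3 (0.41) or inhibitor 3 (0.40), and *Sfxn2* lost its call with upper-quartile factors, library totals, at least 10 counts in every library, DESeq2, without DMSO 2 (-0.32), DMSO 3 (-0.44) or inhibitor 2 (-0.29). *Sfxn2* had 3.26 and 4.29 FPKM in the replicate 1 pair, higher with the inhibitor. Of the outer membrane channels, *Vdac1* (0.36) and *Vdac2* (0.22) were higher and *Vdac3* (-0.31) lower, while all 3 had lower FPKM with the inhibitor in the replicate 1 pair, 86.9 and 70.1 for *Vdac1*. *Vdac2* was not called without DMSO 2 (0.19) or DMSO 3 (0.23). Under library totals *Vdac2* had 0.34, *Vdac3* -0.19 and *Micu2* -0.21, all called. The pyruvate carrier genes *Mpc1* (49.3, 41.9, 47.4 and 45.4 CPM) and *Mpc2* (19.4, 17.9, 15.6 and 16.0 CPM) were not called. Of 4 mitochondrial ABC transporters only *Abcb8* was called under TMM, as lower (-0.78), with 9.93 and 10.5 FPKM, and *Abcb10* (18.4, 17.6, 16.95 and 17.2 CPM) was among those not called.

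Enzymes that work with the citrate and malate-aspartate carriers had 2 of 8 higher and 4 lower under TMM, and 4 higher and 3 lower under library totals, beside 31.5% and 32.3% of all genes and then 37.9% and 26.5%. Both higher genes, *Mdh1* (0.23) and *Acly* (0.20), were not called without DMSO 3 (0.19 and 0.20), nor *Acly* without DMSO 2 (0.18). *Acly* had 0.11 without inhibitor 3, where it was called, and under library totals *Mdh1* had 0.36 and *Acly* 0.33. *Got1*, the cytosolic aspartate aminotransferase, had 194 and 207 CPM with DMSO and 77.3 and 72.9 with the inhibitor, and 94.97 and 53.8 FPKM, lower in all 3 pairs at a log2 fold change of -1.42 ± 0.064 (edgeR quasi-likelihood, Benjamini-Hochberg adjusted p = 7.4e-08). *Mdh2*, the matrix malate dehydrogenase, had 272, 273, 148 and 166 CPM and 164 and 157 FPKM (-0.80 ± 0.064). *Me1*, the cytosolic malic enzyme, had only 55, 72, 25 and 37 counts (-1.41 ± 0.30) and went the other way in the replicate 1 pair, from 0.245 to 0.406 FPKM. In the carnitine shuttle, *Cpt1a* was higher (0.31) and *Crat* lower (-0.33) among 5 genes, with *Cpt2*, *Cpt1b* and *Cpt1c* not called, and *Crat* lost its call under upper-quartile and library-total scaling, with DESeq2 and without DMSO 2 (-0.38) or DMSO 3 (-0.30), and *Cpt1a* without DMSO 2 (0.27). *Crat* had 2.15 and 3.59 FPKM in the replicate 1 pair, higher with the inhibitor. *Cpt1b* had 138, 25, 48 and 105 counts, so libraries within each group lay far apart. Of the 36 called genes of these lists and *Mapk13*, 25 kept the call under every alternative and 12 lost it under at least 1, beside 70.7% of all called genes that kept it.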

How the data were processed

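For replicates 2 and 3 the authors deposited whole-number counts per gene, without normalization. For the replicate 1 pair the deposited values are read as FPKM, a unit inferred from the values. The submitters' processing notes name fastp 0.21.0, HISAT2 2.1.0, StringTie 2.1.5 and DESeq2 1.30.1 with mm10 for the counts, and FastQC and HISAT2 with GRCm38 and mm10 for the pair, with no role or order. Counts were fitted in R 4.3.3 with edgeR 4.0.16 (filterByExpr with a minimum count of 10 and minimum total of 15, TMM, quasi-likelihood test, Benjamini-Hochberg adjustment over all genes tested), 2 libraries against 2. The procedure was also run on simulated counts with few changed genes and the same spread in both groups. Both settings differ from these data, so that run does not test the calls made here. Pairs were set side by side as log2 ratios with a pseudocount of 0.1 CPM or 1 FPKM, which understates changes of low genes. CPM per kb used the union of GENCODE M21 exons. Members and lists were chosen with earlier results of these data known. Members were named, with values in every library where the adjusted p-value was under 0.05 and the absolute log2 fold change at least 0.5, and for close relatives. Of other lists, genes were named where there were at most 6, and otherwise the 3 with the smallest p-values. *Agk*, *Tomm20*, *Tomm5*, *Mdh1* and *Acly* were chosen after their values were seen. Some genes under these rules are not reported here. Alternatives were RLE, upper-quartile and library-total scaling, other filters, DESeq2 1.42.0, a replicate block, each library left out and a threshold of 0.01. Alternatives for the other lists and their genes were added after seeing the data.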

Additional observations from a re-analysis of the deposited data

How the results depend on the processing

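The number of members called as higher, 10, was 6 with DESeq2, 5 at an adjusted p-value under 0.01 and 6 to 10 with 1 library left out, with 6 without DMSO 3. The number called as lower, 19, was 12 with upper-quartile factors, 10 with library totals, 10 with DESeq2 and 11 at the stricter threshold. With 1 library left out it was 11 to 22, with 11 without DMSO 2 and 12 without DMSO 3. The members' median log2 fold change, -0.17, stayed below 0 throughout. It was -0.152 with RLE factors and with DESeq2, -0.0856 with upper-quartile factors, -0.0413 with library totals, -0.146 with no filter, -0.0999 with at least 10 counts in every library and -0.174 to -0.132 with 1 library left out, where the lone library of a group was assumed to vary like the others. The replicate 1 median of 0.137 became 0.167 with a pseudocount of 0.1 and 0.115 with at least 1 FPKM in both libraries. The cause of these shifts was not tested. The 10374 calls over all genes ranged from 8163 to 10943, within 1.5 times the reported count.

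Members named here whose sign turned were all uncalled. With library totals the log2 fold change was 0.0711 for *Slc25a37*, 0.118 for *Slc25a38*, 0.0603 for *Slc25a46* and 0.0013 for *Slc25a53*. With upper-quartile factors it was 0.0268 for *Slc25a37*, 0.0738 for *Slc25a38* and 0.0161 for *Slc25a46*, and for *Slc25a38* it was 0.0070 with RLE factors, 0.0381 with at least 10 counts in every library and 0.0069 with DESeq2. With 1 library left out, *Slc25a4* ranged from -0.0403 to 0.0409, *Slc25a14* from -0.0081 to 0.0226, *Slc25a26* from -0.0787 to 0.254 and *Slc25a38* from -0.0617 to 0.0383. The cause was not tested.

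Replicates of equal number did not deviate together (correlation of deviations from group means -0.00641 across genes). With the number as a replicate block, 10 members were higher and 19 lower, the median was -0.166, and no member's call changed. Counts within a group differed by more than sampling noise (mean chi-square per gene 2.98 for DMSO and 9.65 for MAPK13-IN-1).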
